A study of Mus musculus with 15 samples.

Results

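The 10 genes described here encode transcription factors that set and hold the identity of the somatic cells of the ovary, the granulosa, theca, luteal, stromal and surface cells around the oocytes. They were taken by name from the gene table (Foxl2, Gata4, Gata6, Nr5a1, Nr5a2, Wt1, Runx1, Nr2f2, Tcf21 and Tbx2), and all 10 were found among the 24656 genes listed. All 10 were also among the 17569 genes that passed the filter on low values, so none was lost before testing. RNA came from whole ovaries of UM-HET3 mice, a genetically mixed stock in which animals differ in genotype, with 1 ovary of each mouse used. The 3 groups of 5 libraries were untreated mice of 6 months, untreated mice of 12 months, and mice of 12 months that had been given canagliflozin for the 6 months before. Canagliflozin, an inhibitor of the kidney glucose transporter SGLT2, lowers blood glucose. The labels name no dose, cycle stage or batch, and their extraction protocol mentions the 12-month groups without the 6-month group, so age and preparation cannot be told apart.

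In the embryo the gonad can become a testis or an ovary, and these factors build the early gonad or maintain the ovarian outcome. FOXL2, with RUNX1 in the fetal ovary, keeps granulosa cells from turning into the Sertoli cells of a testis. GATA4, GATA6, NR5A1 and NR5A2 switch on the genes for steroid synthesis and hormone response in granulosa, theca and luteal cells, while WT1, NR2F2, TCF21 and TBX2 are known from the surface epithelium, early follicles, theca precursors or stroma. In whole ovary, fewer cells of a type and less of an RNA per cell cannot be told apart.

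Of the 10 factors 4 were called between 12-month and 6-month controls, where 12.4% of all genes tested were. Nr5a2 rose with age by 1.68-fold, while Gata4, Nr2f2 and Tbx2 fell to 0.741, 0.692 and 0.615 of their 6-month level. The Gata4 call was lost after a correction for exon length and GC content (limma adjusted p = 0.132). Treated 12-month mice were set against the same 6-month libraries, and there these 4 were called in the same directions and Nr5a1 was called lower, where 28.4% of all genes were called. The Nr5a1 call was lost in 12 of 26 alternatives, among them leaving out any 6-month control or canagliflozin replicate 2, 3, 4 or 5. No factor passed the threshold between treated and untreated mice of 12 months, where Gata4 had the smallest p.

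The starts of genes whose level changed with age are shown from the RefSeq promoter table (build GRCm38.p6), which is of another build than the mm39 named by the submitters and was used only for sequence. With the chromosome of Gata6 left out, that table matched 5 of the 10 factors, with 7 windows of 250 bases before to 50 after a transcript start. Foxl2, Tcf21 and Runx1 were matched too, and Gata4, Nr5a1, Wt1 and Tbx2 were not. Whether the table holds a window of Gata6 was not examined. The windows of Nr5a2, which rose, and Nr2f2, which fell, are printed 5′ to 3′ on the strand of the gene, with matches to the searched motifs in capitals. Nr5a2 has 2 annotated starts in the table, at chr1:136960399-136960698 (upstream) and chr1:136953581-136953880 (downstream), both on the minus strand, and the Nr2f2 window is chr7:70366697-70366996, minus strand.
Nr5a2 upstream start: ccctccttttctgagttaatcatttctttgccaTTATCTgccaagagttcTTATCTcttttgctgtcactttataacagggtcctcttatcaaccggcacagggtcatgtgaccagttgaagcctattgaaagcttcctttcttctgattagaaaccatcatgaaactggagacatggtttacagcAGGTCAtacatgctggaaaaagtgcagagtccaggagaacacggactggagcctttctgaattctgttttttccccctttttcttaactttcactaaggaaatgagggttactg
Nr5a2 downstream start: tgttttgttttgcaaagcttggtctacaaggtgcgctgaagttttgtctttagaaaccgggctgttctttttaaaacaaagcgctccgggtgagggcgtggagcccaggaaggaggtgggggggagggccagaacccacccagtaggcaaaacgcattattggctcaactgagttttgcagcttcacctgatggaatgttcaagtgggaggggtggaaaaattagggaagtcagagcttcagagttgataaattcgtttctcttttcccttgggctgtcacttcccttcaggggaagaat
Nr2f2: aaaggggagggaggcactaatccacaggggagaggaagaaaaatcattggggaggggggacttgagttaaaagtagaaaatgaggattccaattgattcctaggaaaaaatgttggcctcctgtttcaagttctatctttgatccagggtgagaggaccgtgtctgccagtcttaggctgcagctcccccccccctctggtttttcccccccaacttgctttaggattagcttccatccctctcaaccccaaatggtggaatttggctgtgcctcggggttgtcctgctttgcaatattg

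The motifs searched on both strands were GTAAACA (forkhead), AGATAA (the site of GATA factors), CAAGGTCA (NR5A), AGGTCA (the nuclear receptor core, which lies inside the NR5A motif), TGTGGT (RUNX), AGGTGTGA (T-box), CAGCTG (E-box) and GCGTGGGAG (WT1). The upstream Nr5a2 window held 2 GATA matches, read as TTATCT on the printed strand, and 1 nuclear receptor core. A GATA match occurs in 11.2% and the core in 16.3% of all 32851 windows of that table. The downstream Nr5a2 window and the Nr2f2 and Foxl2 windows did not hold these letters. Among the other windows, Tcf21 held 1 GATA match and 1 of the 2 Runx1 windows held 2 RUNX matches, a motif present in 16.8% of all windows. A match is a string of letters and was not tested as a binding site.

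Values below are reads scaled by 1 size factor per library, as deposited by the authors, and means are given ± SD with n = 5. Differences are log2 fold changes from limma on log2(value + 1) with their standard error (SE), and a gene is called at a Benjamini-Hochberg adjusted p under 0.05 over all genes tested. Libraries held 8.47 to 13.6 M recovered reads, with M for 1000000. The lowest value of any factor in any library was 326, for Runx1. Markers of granulosa, theca, luteal and stromal cells and of oocytes were present in every library. The shallowest library was canagliflozin replicate 2, and 12-month control replicate 3 had the highest summed red cell markers. Calls of the factors that changed without these 2 libraries are given beside the results.

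**Figure D1:**
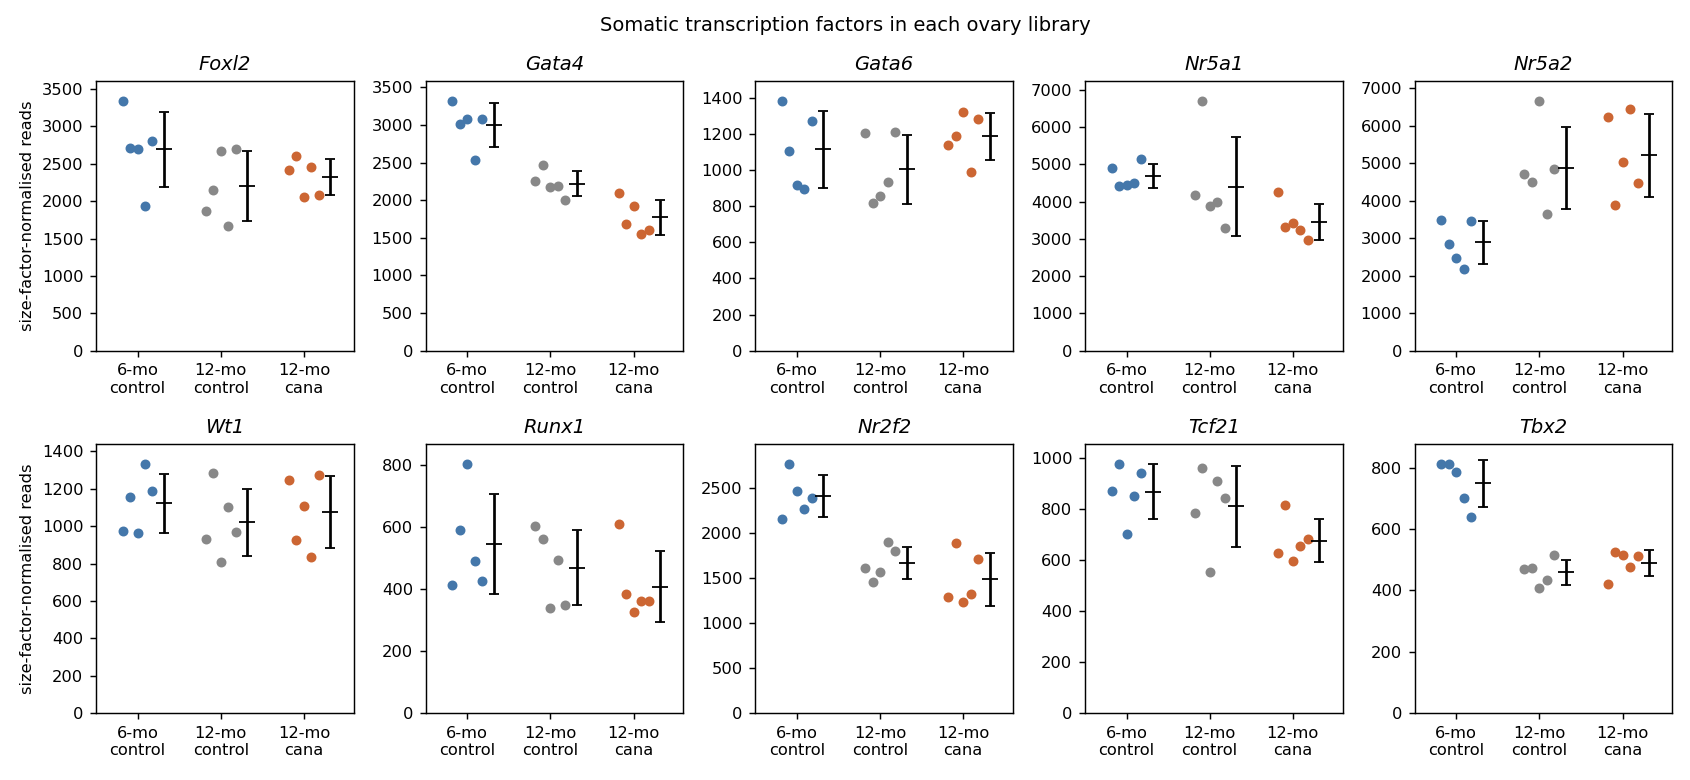
Each panel plots the size-factor-normalised reads (y axis, starting at 0) of a factor in every ovary library of the 3 groups. Points are mice and the black mark with bars is the mean ± SD of 5 libraries. For Gata4, Nr2f2, Tbx2 and Nr5a2 the 12-month controls lie wholly outside the range of the 6-month controls.

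Levels between genes were compared per length of annotated exon, as reads per kilobase and per 1000000 reads (RPKM), since a longer RNA gives more reads. At 6 months Nr5a1 was the most abundant factor at 94.9 ± 6.05 RPKM, followed by Foxl2 at 71.1 ± 12.7, Gata4 at 66.1 ± 5.94, Nr5a2 at 42.1 ± 8.16 and Tcf21 at 31.8 ± 4.06. Below these came Nr2f2 (24.0 ± 2.56 RPKM), Tbx2 (17.8 ± 1.81), Wt1 (15.6 ± 2.29) and Gata6 (14.7 ± 2.72), with Runx1 lowest at 3.89 ± 1.16 RPKM. Of neighbours in this order, Foxl2 and Gata4, Nr5a2 and Tcf21, Tcf21 and Nr2f2, Tbx2 and Wt1, and Wt1 and Gata6 overlapped between libraries. In the 12-month controls Nr5a2 stood second at 71.6 ± 16.7 RPKM, overlapping Nr5a1 (90.01 ± 28.0) above it and Foxl2 (58.8 ± 13.2) below it. In the treated mice Nr5a2 stood first at 70.9 ± 13.8 RPKM, again overlapping Nr5a1 at 65.2 ± 8.62. Runx1 was the lowest in all 3 groups and overlapped no other factor.

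Untreated mice of 12 and 6 months were compared first. Their difference is called the change with age here, although preparation cannot be told apart from age. By limma 4 of the 10 factors were called, where 12.4% of all genes tested were. Of these 1 was higher, where 5.4% of all genes were, and 3 were lower, where 7.01% were. The median log2 fold change of the 10 was -0.18, against 0.0039 for all genes tested. Of the 10, 9 were negative, as were 49.5% of all genes tested. Among these, the uncalled Gata6, Nr5a1 and Wt1 became positive after the correction for exon length and GC content. For 4 of the 10 the groups did not overlap, as was so for 13.7% of all genes tested.

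Nr5a2 (ENSMUSG00000026398) encodes LRH-1, a nuclear receptor of granulosa and luteal cells that is required for ovulation and for the corpus luteum. The 6-month controls measured 3477, 2851, 2486, 2185 and 3463. In the 12-month controls the values were 4707, 4502, 6664, 3645 and 4854, so that every one lay above the highest 6-month value. The treated mice measured 6240.3, 3887, 5041, 6454 and 4487 and were likewise all above the 6-month controls. Between the control ages the log2 fold change was 0.75 (SE 0.18, limma adjusted p = 0.0121). Nr5a2 was the only factor of the 10 that was called higher with age.

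Gata4 (ENSMUSG00000021944), a zinc-finger factor of granulosa and theca cells that acts on steroid-synthesis and inhibin genes, went the other way. At 6 months it measured 3317, 3008, 3079, 2527 and 3072. The 12-month controls measured 2249, 2469, 2176, 2191 and 2009, all below the lowest 6-month library. In treated mice Gata4 was at 2099, 1684, 1918, 1554 and 1606, and 4 of these 5 lay below the lowest 12-month control. With age the log2 fold change was -0.43 (SE 0.10, limma adjusted p = 0.00975). Correcting every library for trends with exon length and GC, which was tried after the data had been seen, gave -0.24 and ended the call (limma adjusted p = 0.132).

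Nr2f2 (ENSMUSG00000030551) encodes COUP-TFII, a nuclear receptor of stromal cells and theca precursors. It measured 2149.9, 2767, 2462, 2263 and 2388 at 6 months. The 12-month controls had 1613, 1457, 1562, 1896 and 1798, a range wholly below the first. In treated mice the values were 1286, 1889, 1229, 1327 and 1708, with 3 of 5 below the lowest 12-month control and the others within that group's range. The log2 fold change with age was -0.53 (SE 0.12, limma adjusted p = 0.00979). An RNA on the opposite strand, B130024G19Rik, shares 643 exon bases with Nr2f2 and went from 245 to 193 with age (limma adjusted p = 0.125). In treated mice it averaged 163 and was called lower than at 6 months (log2 fold change -0.60, limma adjusted p = 0.00605), as Nr2f2 was. The kit keeps strand but whether the authors' counting used it is not given in the sources used here, so reads of the pair cannot be told apart with certainty.

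Tbx2 (ENSMUSG00000000093), a T-box repressor of developing mesenchyme, had the smallest p of the 10 with age. The 6-month controls measured 812, 811, 784, 699 and 640.5. The 12-month controls measured 471, 472, 408, 433 and 515 and the treated mice 421, 526, 514, 475 and 512. Both 12-month groups lay wholly below the 6-month controls and overlapped each other. The log2 fold change between control ages was -0.70 (SE 0.094, limma adjusted p = 0.000379).

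The remaining 6 factors did not pass between the control ages. Foxl2 (ENSMUSG00000050397), the granulosa factor, measured 2696 ± 502 at 6 and 2208 ± 467 at 12 months, with a 95% interval of the log2 fold change from -0.62 to 0.031 (limma adjusted p = 0.23). Its antisense neighbour Foxl2os shares 12 exon bases with it and averaged 1243 over all libraries. Nr5a1 (ENSMUSG00000026751), which encodes SF-1, a nuclear receptor acting on nearly every step of steroid synthesis, measured 4682 ± 325 and 4405 ± 1326 (limma adjusted p = 0.627). Its spread at 12 months came largely from control replicate 2, at 6701 against 3282 to 4166 in the other 4 libraries. Gata6 (ENSMUSG00000005836), which overlaps in function with Gata4, measured 1115 ± 214 and 1003 ± 189, and Wt1 (ENSMUSG00000016458), of the surface and early follicles, 1122 ± 157 and 1019 ± 181 (limma adjusted p = 0.533 and 0.552). The intervals of these log2 fold changes were -0.45 to 0.19 for Nr5a1, -0.45 to 0.15 for Gata6 and -0.45 to 0.16 for Wt1. Runx1 (ENSMUSG00000022952), a granulosa factor that blood cells also use, measured 544 ± 161 and 469 ± 121 and had the widest interval of the 10, -0.67 to 0.25. Tcf21 (ENSMUSG00000045680), a helix-loop-helix factor of stromal precursors, measured 867 ± 106 and 810.2 ± 159 (interval -0.41 to 0.18). The intervals of 5 of these 6 factors include a fall of the size seen in Gata4, and that of Tcf21 ends short of it.

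**Figure D2:**
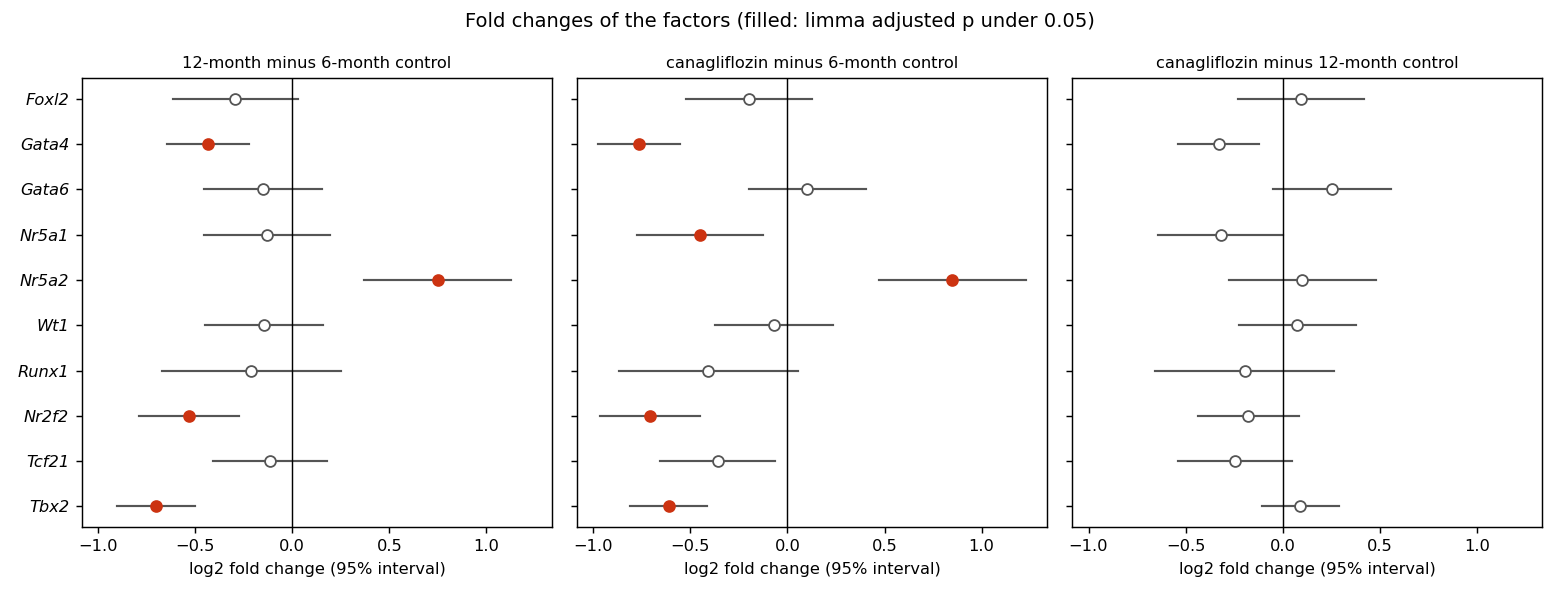
Log2 fold changes (x axis) of the 10 factors in the 3 comparisons, with lines for 95% intervals and filled points where the limma adjusted p was under 0.05. Nr5a2, Gata4, Nr2f2 and Tbx2 are filled in both comparisons with the 6-month controls, and no point is filled between treated and untreated mice of 12 months.

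Treated mice of 12 months were also set against the 6-month controls, a comparison that shares the 6-month libraries with the age comparison and is therefore not independent of it. Here 5 of the 10 were called, where 28.4% of all genes tested were. Of these 1 was higher and 4 were lower, where 13.5% and 14.9% of all genes were. The same 5 had groups that did not overlap, as did 18.5% of all genes. Nr5a2 had a log2 fold change of 0.85 (SE 0.18, limma adjusted p = 0.00257). Gata4 stood at -0.76 (SE 0.10, limma adjusted p = 0.000102), against -0.43 for the untreated 12-month mice. Nr2f2 stood at -0.71 and Tbx2 at -0.61 (limma adjusted p = 0.000698 and 0.000322).

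Nr5a1 was called lower in treated mice than at 6 months, and this call was the least stable. Its values were 4896, 4427, 4437, 4499 and 5149 at 6 months. In treated mice they were 4260.4, 3325, 3416, 3247 and 2979, all below the lowest 6-month library. The log2 fold change was -0.45 (SE 0.15, limma adjusted p = 0.0371). Leaving out each library in turn kept the call in 6 of 15 fits, with a limma adjusted p from 0.0054 to 0.081 over all 15. The fits that kept it lacked canagliflozin replicate 1 or a 12-month control, a group not compared here. Canagliflozin replicates 2 to 5 and each of the 5 libraries of the 6-month controls ended the call when left out. With the length and GC correction the difference was -0.28 (limma adjusted p = 0.166), with edgeR's upper-quartile factors -0.43 (edgeR adjusted p = 0.0551), and without canagliflozin replicate 2 and 12-month control replicate 3 it was -0.44 (limma adjusted p = 0.0598). Of 6 theca markers 2 were also called lower here, Ptch1 and Enpep (log2 fold changes -0.70 and -0.84). Insl3 (-0.64), Hhip (-0.40) and Gli1 (-0.29) were lower without a call. The theca enzyme gene Cyp17a1 stood at 0.70 (SE 0.97, limma adjusted p = 0.616), with a mean of 1382 in both groups. The stromal list had 3 of 6 and the muscle list 5 of 8 called lower, against 14.9% of all genes, and the part of any of these lists in the Nr5a1 result was not tested. Tcf21, with a limma adjusted p of 0.0623 at a log2 fold change of -0.36, was just outside the threshold and was called in 7 of 26 alternatives, among them the fit without the 2 libraries named above (-0.43, limma adjusted p = 0.00585).

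The comparison of treated with untreated mice of 12 months asked what the drug changed at equal age. None of the 10 factors was called by limma, as against 1 of 17569 genes (0.00569%), and edgeR and DESeq2 on the recovered reads called none of them either. At an unadjusted p under 0.05 there was 1 factor, Gata4, where 9.2% of all genes tested reached that level. For none of the 10 were the groups apart, as they were for 1.05% of all genes. Gata4 measured 1772 ± 229.7 in treated and 2219 ± 166 in untreated mice (log2 fold change -0.33, SE 0.10, limma adjusted p = 0.447), with a 95% interval of -0.54 to -0.12. In all 26 alternatives its difference was negative, and in none was it called. Nr5a1 was at 3446 ± 484 against 4405 ± 1326 (log2 fold change -0.32, limma adjusted p = 0.546), and without 12-month control replicate 2 the difference was -0.16. Gata6 lay on the other side of 0, at 1186 ± 131 against 1003 ± 189 (0.25, limma adjusted p = 0.596).

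Foxl2 measured 2324 ± 244 against 2208 ± 467, with an interval of the log2 fold change from -0.23 to 0.42. For Nr5a2 the interval was -0.28 to 0.48, for Wt1 -0.23 to 0.38 and for Runx1 -0.66 to 0.26. For Nr2f2 it was -0.44 to 0.081, for Tcf21 -0.54 to 0.048 and for Tbx2 -0.11 to 0.29. The interval of Tbx2 was the narrowest. Its upper end was less than the size of the fall of Tbx2 with age, -0.70.

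GATA4 and GATA6 bind the same DNA motif, as do NR5A1 and NR5A2, so the balance within each pair was measured in each library as the log2 ratio of the scaled reads. A ratio within a library does not depend on its size factor. For Gata4 over Gata6 the 6-month controls had 1.26, 1.44, 1.74, 1.50 and 1.27 and the 12-month controls 0.90, 1.59, 1.35, 1.23 and 0.73. The treated mice had 0.88, 0.50, 0.53, 0.65 and 0.32, and 4 of these 5 lay below the lowest 12-month control. Treated and untreated mice of 12 months differed by -0.58 (exact two-sided permutation p = 0.0159, 0.0317 adjusted over the 6 ratio tests, n = 5 per group). The control ages differed by -0.28 (exact permutation p = 0.167), and the treated mice differed from the 6-month controls by -0.87 (exact permutation p = 0.00794, adjusted 0.0238), the smallest p that 5 against 5 can give. The difference between treated and untreated mice passed 0.05 after adjustment with all libraries but not without canagliflozin replicate 2, 3 or 5 (-0.57, -0.57 and -0.52, exact permutation p = 0.0397, adjusted 0.0595 each). An overlapping RNA on the opposite strand of Gata6, 1010001N08Rik, shares 93 exon bases with it and averaged 226 at 6 months, 321 in 12-month controls and 373 in treated mice. It was called higher in treated mice than at 6 months (log2 fold change 0.81, limma adjusted p = 0.0396) and was not called between the 12-month groups (0.25, limma adjusted p = 0.782), and its part in the Gata4 to Gata6 ratio was not tested.

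For Nr5a1 over Nr5a2 the 6-month controls had 0.49, 0.63, 0.84, 1.04 and 0.57, all positive. The 12-month controls had -0.18, 0.57, -0.78, 0.13 and -0.56, and the treated mice -0.55, -0.23, -0.56, -0.99 and -0.59, all negative. Nr5a1 thus gave more reads than Nr5a2 in every 6-month library and fewer in every treated library, while untreated 12-month mice fell on both sides. The sign of this ratio is not corrected for exon length, 4.241 kb for Nr5a1 and 5.899 kb for Nr5a2. Per length the levels of these genes overlapped in treated mice. The log2 ratio changed by -0.88 with age (exact permutation p = 0.0238, adjusted 0.0357). Without 6-month control replicate 4 that change was -0.80 (exact permutation p = 0.0397, adjusted 0.0595). Treated mice differed from 6-month controls by -1.30 (exact permutation p = 0.00794, adjusted 0.0238) and from untreated 12-month mice by -0.42 (exact permutation p = 0.167, adjusted 0.167).

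**Figure D3:**
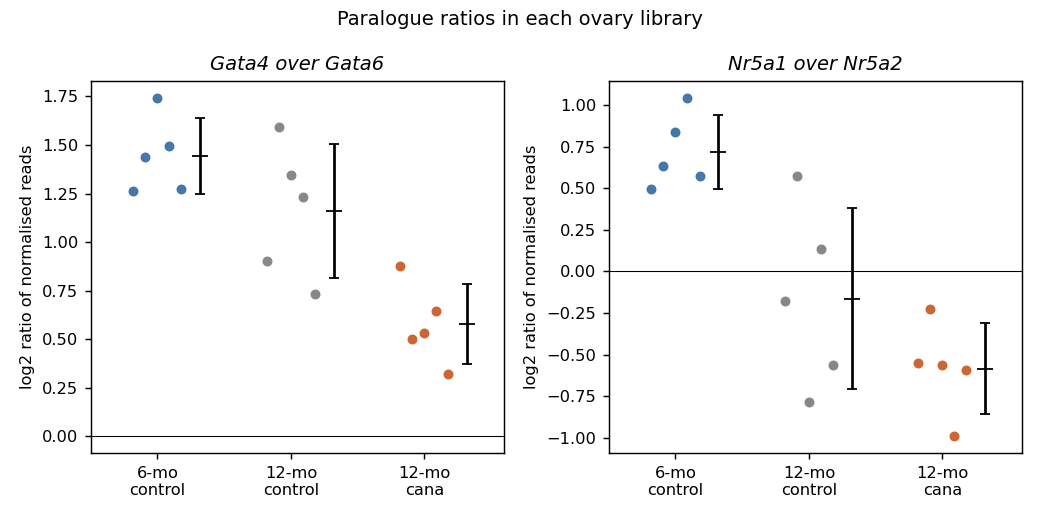
Log2 ratio (y axis) of the scaled reads, not corrected for exon length, of Gata4 to Gata6 and of Nr5a1 to Nr5a2 in each library. The black mark with bars is the mean ± SD of 5 libraries. For Gata4 over Gata6 the treated mice run from 0.32 to 0.88 and 4 of the 5 lie below every control, and all 5 lie below 0 for Nr5a1 over Nr5a2.

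Covariation of the factors was described after subtracting each group's mean from log2(value + 1), over the 15 libraries, which also share depth and tissue makeup. The highest correlations between factors were those of Gata4 with Nr5a1 (r = 0.68) and of Foxl2 with Nr5a2 (r = 0.64). The lowest were Foxl2 with Wt1 (-0.56) and Nr5a2 with Nr2f2 (-0.55). Gata4 and Gata6 had an r of 0.20, and Nr5a1 and Nr5a2 an r of 0.13. Against the summed level of granulosa cell markers the highest values were those of Nr5a2 (r = 0.76), Gata4 (0.64) and Foxl2 (0.53). Over all lists the r of largest size was with genes of the testis programme for Foxl2 (0.55). For Gata4 it was with endothelial markers (-0.67) and for Wt1 with oocyte markers (0.70). Against theca markers the highest was Nr5a1 (r = 0.83), and against stromal markers Runx1 (0.59), Tcf21 (0.57) and Nr2f2 (0.47). The library with the highest Nr5a1, 12-month control replicate 2, also had the highest summed theca markers, 10090.3 against 2147 to 5303 in the other 14. These sums add scaled reads, so genes with high values weigh most. Cyp17a1 reached 7729, against at most 1344 for any other theca marker. In the granulosa list Inhbb reached 15469, against at most 4396 for any other. In the testis list Dhh reached 430 and Ptgds 418, against 139 for Cldn11 and 118 for Sox9. The r of Foxl2 with that list therefore rests mostly on genes other than Sox9. Cyp17a1 and Inhbb are also known targets of these factors, and cell content was not measured.

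**Figure D4:**
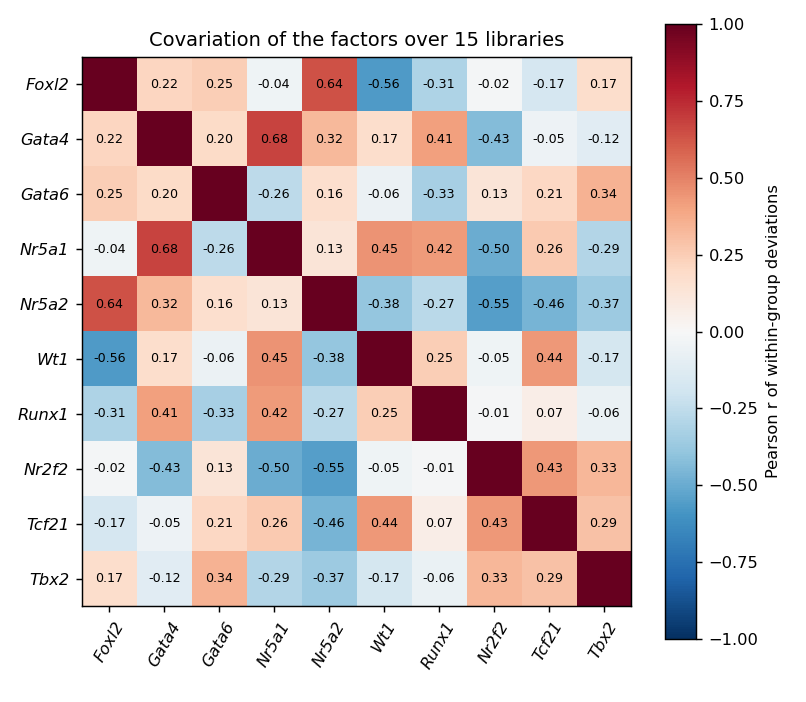
Pearson r between the 10 factors, on both axes, of deviations from the group mean over 15 libraries, with colour from -1 to 1 and the value printed in each cell. The highest off-diagonal cell is Gata4 with Nr5a1 and the lowest Foxl2 with Wt1.

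The 2 named genes most like each factor by the same measure were taken from 14060 tested genes, and are the highest of that many candidates, given as a description. For Nr5a1 they were Zdhhc8 (r = 0.94) and Wiz (r = 0.90), for Nr2f2 Nfat5 (r = 0.94) and Zbtb41 (r = 0.93), and for Wt1 Sorcs2 (r = 0.90) and Slc4a4 (r = 0.89). For Runx1 they were Msr1 (r = 0.90) and Lgals1 (r = 0.89), for Tcf21 Lrig3 (r = 0.89) and Crebzf (r = 0.88), and for Gata4 Net1 (r = 0.89) and Txnl1 (r = 0.87). Tbx2 was most like Stx11 (r = 0.88) and Ttc30b (r = 0.88), and Nr5a2 most like Aunip (r = 0.87) and Prkcd (r = 0.87). Foxl2 was most like Cyb5a (r = 0.87) and Qsox2 (r = 0.86), and Gata6 most like Dnah11 (r = 0.87) and Pcdhga12 (r = 0.82). None of these 20 is another of the 10 factors.

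Other transcription factors and cofactors of gonadal somatic cells formed a list of 27, of which 26 were tested. With age 1 rose and 3 fell, a share near the 12.4% of all genes called, and the list's median log2 fold change was -0.059. Esr2, the oestrogen receptor of granulosa cells, rose from 605 ± 156 to 1042 ± 242 (limma adjusted p = 0.0196). Cbfb, the partner that RUNX proteins need to bind DNA firmly, fell from 1438 ± 71.7 to 1051 ± 115 (limma adjusted p = 0.0156), while Runx1 itself did not pass.

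The homeobox factor Meis1 fell from 458 ± 79.2 to 322 ± 51.9 and Cited2, a cofactor of WT1 in the early gonad, from 4546 ± 1320.4 to 2798 ± 315 (limma adjusted p = 0.0199 and 0.0244). Between treated mice and 6-month controls 2 rose and 6 fell, near the 28.4% of all genes called. The 2 were Esr2 and the homeobox gene Irx5 (log2 fold change 0.91), and the 6 were Cbfb, Meis1, Cited2, Tbx3, Ctnnb1 and Esr1. Tbx3, the closest relative of Tbx2 in the list, had a log2 fold change of -1.13 there (limma adjusted p = 0.00141), and of -0.58 with age (limma adjusted p = 0.0942). None of the 26 was called by limma between treated and untreated mice of 12 months.

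**Figure D5:**
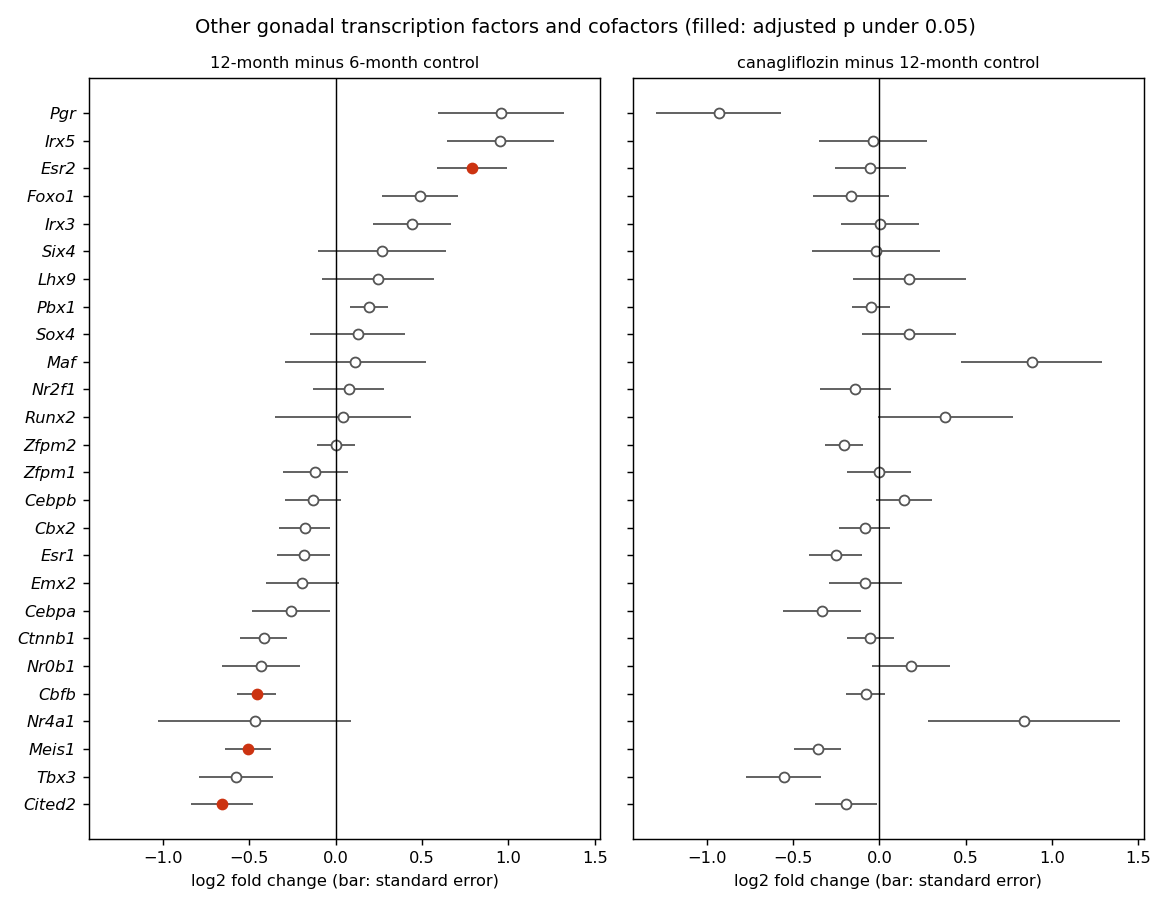
Log2 fold changes (x axis) with standard errors of the 26 tested genes of that list, for age on the left and for canagliflozin at 12 months on the right, ordered by the age difference. Filled points passed the threshold, which 4 did for age and none for canagliflozin.

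Genes that the factors are known to act on formed a list of 15, all tested. With age 1 of the 15 was called, where 12.4% of all genes tested were. It was Inhba, which encodes the beta A subunit of activin and inhibin and rose from 2519 ± 999 to 9043 ± 1764 (3.82-fold, limma adjusted p = 0.00491). The list's median was 0.28, with 11 of 15 positive. Between treated mice and 6-month controls 2 of the 15 rose and 1 fell, where 28.4% of all genes were called. Inhba and Fst, the activin-binding follistatin and a FOXL2 target, rose, and Amhr2, the receptor of anti-Müllerian hormone, fell (log2 fold changes 2.06, 0.70 and -0.59). None was called at equal age.

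The testis programme, which FOXL2 holds down, formed a list of 10, of which 9 were listed in the table and 7 tested. None was called with age or at 12 months between treated and untreated mice. Sox9, the main Sertoli cell factor, measured 77.1 ± 17.2 at 6 months, 64.9 ± 19.5 in 12-month controls and 95.1 ± 25.0 in treated mice (limma adjusted p = 0.501 with age and 0.537 for treatment). Sox8, its relative, measured 20.9 ± 7.77, 14.3 ± 4.76 and 15.9 ± 5.76. Gata1 was called lower in treated mice than at 6 months (log2 fold change -1.19, limma adjusted p = 0.00258), and is also a factor of blood cells.

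Cell type markers are given beside the factors because whole ovary was measured. With age 0 of 9 granulosa, 0 of 6 theca and 0 of 7 luteal markers were called. Their summed levels ran from 7224 to 17952 at 6 months and 11543 to 24999 in 12-month controls for granulosa, 2147 to 5303 and 3609 to 10090.3 for theca, and 92398 to 169199 and 111114 to 245984 for luteal cells. In treated mice the ranges were 10262 to 26235, 2455 to 4814 and 93639 to 291063. Those of all 3 groups overlapped for each of these cell types. In treated mice against 6-month controls, where 28.4% of all genes were called, 1 granulosa marker fell, Gatm (log2 fold change -0.82). Of the theca markers Ptch1 and Enpep fell, and of the luteal markers Sfrp4 rose (1.63) and Parm1 fell (-0.87).

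The other lists are read against the 12.4% of all genes called with age and the 28.4% called in treated mice against 6-month controls. Of 6 stromal markers 1 fell with age, Col1a1 (log2 fold change -0.77). Dpt (-1.33, limma adjusted p = 0.0839) and Lum (-0.79, limma adjusted p = 0.0549) were lower but did not pass. Ogn (0.26), Pdgfra (0.055) and Dcn (-0.047) did not pass either, and the list's median was -0.41. In treated mice against 6-month controls 3 of the 6 fell (Lum, Col1a1 and Dpt). The stromal sum ran from 18908 to 27151 at 6 months, 11339 to 21022 in 12-month controls and 10686 to 16509.8 in treated mice. Of 8 smooth muscle and pericyte markers 3 fell with age (Myh11, Cspg4 and Notch3). In treated mice against 6-month controls 5 fell, these 3 with Acta2 and Tagln. For the groups in the order above the sums were 14661 to 20375, 8596 to 15298 and 8278 to 16857. Of 7 endothelial markers 1 fell (Cdh5), of 6 tested immune markers 2 rose (Cd3g and Jchain) and 2 fell (Adgre1 and Csf1r), and of 4 fat cell markers 3 rose (Adipoq, Cidec and Fabp4). In treated mice against 6-month controls 3 endothelial markers rose (Emcn, Esam and Egfl7) and 1 fell (Cdh5). The same 2 immune markers rose and the same 2 fell, and the same 3 fat cell markers rose while Plin1 fell. In the same order of groups the sums were 4922 to 5434, 4423 to 5360.3 and 4409 to 7005 for endothelium, 1102 to 1552, 584 to 1336 and 669.9 to 1018 for immune cells, and 253 to 505, 269 to 995 and 277 to 705 for fat. No surface epithelium, oocyte, red cell or oviduct marker was called with age. In treated mice against 6-month controls 1 of these was called, the oocyte marker Nobox, which fell (-0.99, limma adjusted p = 0.0114). Of the oviduct markers Ovgp1 ran from 27.5 to 211 over the libraries, Foxj1 from 0 to 76.4 and Pax8 from 0 to 7.82. No marker of the granulosa, theca, luteal, stromal or muscle lists was at 0 in any library.

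Between treated and untreated mice of 12 months no marker was called, in a comparison with 1 called gene in all. The lists are therefore given by the sign of the log2 fold change. By that sign all 7 endothelial and all 5 red cell markers were higher in treated mice (medians 0.32 and 1.19). So were 9 of 10 surface epithelium markers (0.39). Summed scaled reads of the red cell markers were instead lower in treated mice, 3408 ± 2357 against 4688 ± 7684. The 12-month controls ran from 168 to 18087 in that sum. All 6 stromal markers were lower (median -0.26), as were 5 of 6 theca (-0.48), 7 of 8 oocyte (-0.32) and 6 of 9 granulosa markers (-0.15). The median over all genes tested was -0.0019. The part of these lists in the Gata4 level and the Gata4 to Gata6 ratio of treated mice was not tested. The part of cell makeup in the changes of Nr5a2, Gata4, Nr2f2 and Tbx2 was not tested.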

How the data were processed

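Polyadenylated RNA of 1 ovary per mouse was sequenced in 15 libraries, 5 per group, grouped by their titles. The authors deposited 1 table of signal per gene, which from its values is reads per gene divided by a size factor per library. The submitters' processing notes list Partek 11.0 and mm39. For aligner, annotation and normalization no name is given in the sources used here. Low values were whole multiples of each library's smallest value, and at least 99.99% of values came out as whole reads within 0.1 of a read, so reads were recovered for count tests. No pair of libraries of a group agreed within sampling noise.

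Differences were tested in R 4.3.3 by limma 3.58.1 on log2(value + 1), with its trended robust variance and 1 fit of all libraries. Genes needed 10 or more in at least 5 libraries, and 17569 passed. Alternatives were edgeR 4.0.16 and DESeq2 1.42.0 on recovered reads, which called 9 and 63 genes between the 12-month groups, other pseudocounts (0.5 and 5) and filters, only the groups compared, a replicate block, and each library left out. Paralogue ratios were compared by exact two-sided permutation over 252 arrangements. Limma p-values set differences between groups of 5 mice against the spread between mice. That spread was pooled over the 3 groups and moderated towards a trend over all genes tested. Exon lengths came from GENCODE M21 (GRCm38) by Ensembl identifier, and promoters from RefSeq. The test was checked on simulated data. Named genes were all 10 factors, called genes of 15 lists (or up to 3 with the smallest p), and the 2 most correlated genes per factor. The members and lists were chosen with earlier results of these data known. Of the list of other gonadal factors, 3 genes are not reported here.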

Additional observations from a re-analysis of the deposited data

Results flagged for a closer look

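Among 36 sets of 5 libraries (10 factors and 2 ratios in 3 groups), 2 held a library far from the other 4, and chance alone flags about 1 in 20. Nr5a1 was 6701 in 12-month control replicate 2, where the next library was at 4166. Without that library the log2 fold change of Nr5a1 was -0.29 with age (limma adjusted p = 0.105) and -0.16 between treated and untreated mice (limma adjusted p = 0.731). Runx1 was 611 in canagliflozin replicate 1, where the next library was at 383. Without it the log2 fold change of Runx1 between treated mice and 6-month controls was -0.56 (limma adjusted p = 0.057), against -0.41 with all libraries.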

How the results depend on the processing

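Over all genes 1 was called between the 12-month groups, against 9 by edgeR, 63 by DESeq2, 3 with a replicate block, 2 without the filter, and 0 with only the groups compared or with the correction for exon length and GC content, and 0 to 37 without 1 library. Leaving out each library in turn gave 4 called factors with age and 0 between the 12-month groups, and gave 4 to 6 between treated mice and 6-month controls. Nr5a2, Nr2f2 and Tbx2 were called with age in all 26 alternatives and Gata4 in 25, the exception being that correction. Uncalled differences changed sign under that correction for Gata6 (0.0024), Nr5a1 (0.070) and Wt1 (0.0058) with age and for Wt1 between treated mice and 6-month controls (0.12), and the cause was not tested. With canagliflozin replicate 2 and 12-month control replicate 3 both left out, a setting added after seeing the data like that correction, Tcf21 with age was 0.017. Leaving out 1 library gave ranges across 0 for Tcf21 with age (-0.19 to 0.017), Foxl2 (-0.0016 to 0.17) and Wt1 (-0.0033 to 0.16) between the 12-month groups, and Wt1 between treated mice and 6-month controls (-0.13 to 0.018).

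Gata4 over Gata6 between the 12-month groups ran from -0.69 to -0.48 without 1 library, and was -0.52 without both libraries named above (exact permutation p = 0.0571, adjusted 0.0857). Nr5a1 over Nr5a2 with age ran from -1.06 to -0.72, and was -0.63 after the length and GC correction (exact permutation p = 0.0476, adjusted 0.0714). Replicate numbers are shared between groups, but same-numbered libraries did not deviate together (r = -0.30 to 0.25 over tested genes), so the numbers were not taken as pairs. With a replicate block 4 factors were called with age, 0 between the 12-month groups, and 6 between treated mice and 6-month controls, Tcf21 being added. As a sign-flip test of same-numbered differences, the replicate block gave the ratio differences -0.88, -1.30, -0.58 and -0.87 an exact p of 0.0625 (adjusted 0.0938), the smallest that 5 pairs can give.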
